A study of Mus musculus with 4 samples.

Results

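Neurotrophins and their receptors were examined in RNA bound to the ribosomes of midbrain dopamine neurons and in RNA of the whole midbrain. The genes were Bdnf, Ntf3, Ntrk2, Ntrk3, Ngfr and Sort1, and their probe sets were those to which the platform annotation gives 1 of these symbols and no other. This rule found 24 of the 45037 probe sets that were tested, from 5 of the 6 genes: 2 for Bdnf, 8 for Ntrk2, 8 for Ntrk3, 3 for Ngfr and 3 for Sort1. Ntf3 was not analysed here. Tissue came from the Slc6a3 JD1640 TRAP line, in which a BAC carrying Slc6a3, the dopamine transporter gene, drives a GFP-tagged copy of the ribosomal protein RPL10A in dopamine neurons. Founders were made in FVB oocytes and crossed to C57BL6/j, and the mice were heterozygous carriers. Each array held RNA from a pool of midbrains from 5 adults of both sexes, aged 6 to 12 weeks, with no treatment named, and the dissection buffer held cycloheximide, which keeps ribosomes on their mRNA. TRAP (translating ribosome affinity purification) with an antibody to GFP gave 2 arrays, replicates 2 and 4, and whole midbrain RNA gave 2 more, replicates 1 and 2. The labels describe that second fraction as unbound, while the methods call it input, and it is named input here. Both fractions came from transgenic mice, and input also holds the RNA of the dopamine neurons themselves. The line is a single integrant of its BAC.

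Neurotrophins are secreted growth factors that keep neurons alive and shape their synapses. They are made as longer precursors that convertases cut, and the mature proteins act through Trk receptor tyrosine kinases. Bdnf encodes brain-derived neurotrophic factor, Ntrk2 its receptor TrkB and Ntrk3 the receptor TrkC, which binds neurotrophin 3. Both receptor genes give full-length proteins and truncated ones without the kinase, and truncated TrkB is known from astrocytes. Ngfr encodes p75, a receptor that all neurotrophins bind, and Sort1 encodes sortilin, which sorts BDNF within the cell and joins p75 in binding the precursors. Midbrain dopamine neurons are a long-known target of BDNF and also a source of it.

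Levels are given in arbitrary expression units, which are 2 raised to the deposited log2 value. A probe set was termed above background where both arrays of at least 1 fraction reached 50 units, as 12 of the 24 did. Where only 1 fraction did so, the rule itself favours a difference toward that fraction. The fractions were compared by limma on all 45037 probe sets with Benjamini-Hochberg adjustment, and a probe set is said to have risen or fallen where the adjusted p was under 0.05. With 2 arrays a fraction, the number of arrays limits the precision, and p-values weigh the difference against the spread between 2 pools. Among all 17073 probe sets above background the median log2 fold change was 0.44 in favour of TRAP, and the changes that passed are read beside that median. TRAP arrays carried the markers of the targeted cells: all 12 dopamine neuron markers rose, with a median log2 fold change of 4.32. Of 50 measured markers of astrocytes, oligodendrocytes and their precursors, GABA and glutamate neurons, microglia and vessels, 39 were above background, all 39 were lower in TRAP on average, 7 fell and 16 lay under 50 units on both TRAP arrays. They were not evenly present on the TRAP arrays, and 37 of the 39 were higher on replicate 2. The 10 astrocyte markers summed to 13584 units on TRAP replicate 2, to 7747 on replicate 4, and to 29931 on input replicate 1 and 36151 on input replicate 2, and the 9 oligodendrocyte markers to 72550, 34003, 80865 and 92747. The control probe sets for Gapdh, which compare the 3′ with the 5′ end of its RNA, differed by 4.96 and 3.52 log2 units on TRAP replicates 2 and 4 and by 6.81 and 6.39 on input replicates 1 and 2.

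The ligand gene Bdnf rose and the receptor gene Ntrk3 fell in TRAP, each on 1 probe set above background. Of the 12 probe sets above background 1 rose, against 18.8% of all probe sets above background, and 1 fell, against 9.13%. Without adjustment, p from limma was under 0.05 for 1 higher probe set (28.0% of all above background) and 2 lower ones (13.0%). Both TRAP arrays lay above both input arrays on 2 of the 12 (51.5% of all above background) and below them on 5 (24.9%), and the fractions overlapped on the other 5. The median log2 fold change of the 12 was -0.41. A single call in each direction is a share near or under that of all probe sets. Without a call, a smaller share of the 12 than of all probe sets had TRAP above input and a larger share had it below, which is given as a description with no test. The 12 come from 4 genes, and probe sets of 1 gene are not independent.

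**Figure D1:**
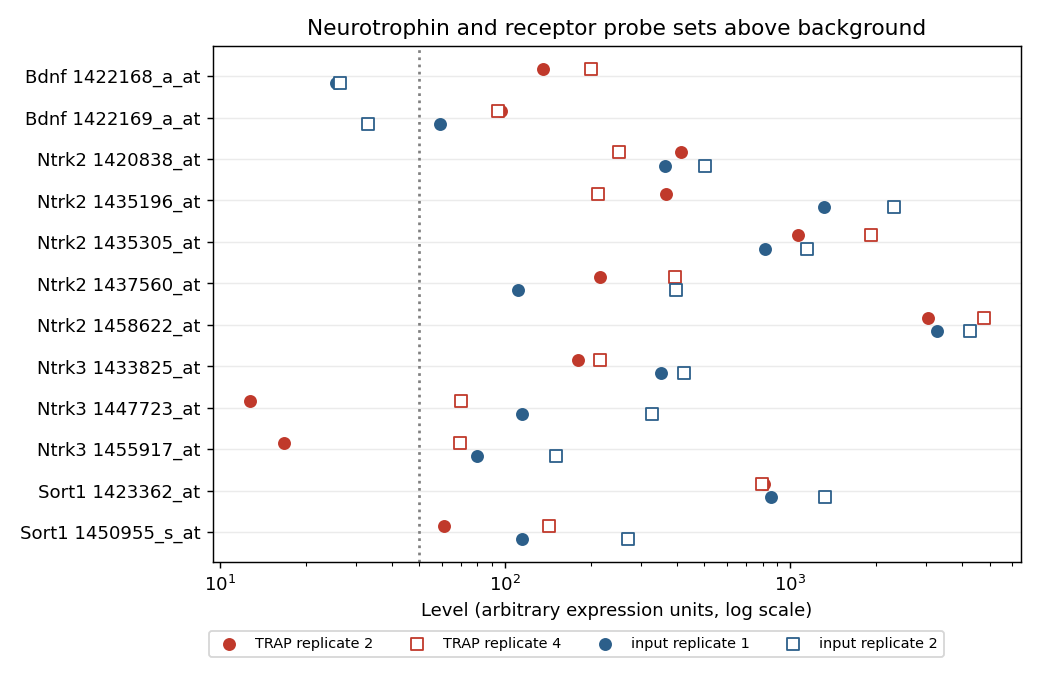
Level of each of the 12 probe sets above background on a log axis in arbitrary expression units. Red marks are the 2 TRAP arrays, blue marks the 2 input arrays, each mark is 1 array, and the dotted line is 50 units. Both Bdnf probe sets have TRAP above input, and all 3 of Ntrk3 have TRAP below input. Those of Bdnf passed the filter only through TRAP, and 1447723_at and 1455917_at of Ntrk3 only through input.

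Bdnf was measured by 2 probe sets, both of a class that matches several transcripts of the same gene. Both were above background only through TRAP, which favours TRAP values above input on them. On 1422168_a_at the levels in TRAP were 136 units on replicate 2 and 201 on replicate 4, against 25.6 and 26.4 on the input arrays. Both input arrays were below 50 units, so the rise has only a bound of at least 3.30-fold. The log2 fold change on the deposited values was 2.67 (standard error, SE, 0.26, 95% interval 1.67 to 3.66, limma adjusted p = 0.0168). On 1422169_a_at the levels were 97.0 and 94.5 units in TRAP and 59.3 and 33.2 in input. Again no input array reached the TRAP arrays, but the 2 input arrays were far apart, and 1 of them was below 50 units. Its log2 fold change was 1.11 (SE 0.39, 95% interval -0.37 to 2.58) and did not pass (limma adjusted p = 0.127).

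The size of the Bdnf difference depended on the probe set and on the arrays. Within each array, 1422168_a_at less 1422169_a_at was 0.49 and 1.09 log2 units on TRAP replicates 2 and 4 and -1.21 and -0.33 on input replicates 1 and 2. The fractions did not overlap in this difference, and the 2-sided exact permutation p was 0.333, the smallest that 2 against 2 arrays can give. Without either 1 of the input arrays the call moved from one probe set to the other: 1422168_a_at missed the threshold (limma adjusted p = 0.112 in each case) and 1422169_a_at passed it (0.0110 without input replicate 1 and 0.0270 without input replicate 2). Raising all levels under 50 units to 50 gave 1422168_a_at a log2 fold change of 1.72, and it missed the threshold too (limma adjusted p = 0.138). The mean of both probe sets gave a log2 fold change of 1.89 (limma adjusted p = 0.0277).

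Transcripts of Bdnf begin at several first exons that share a single coding exon. RefSeq (GRCm38.p6) gives 7 start windows for it. The arrays do not separate transcripts by start site, so which of them the probe sets measured was not resolved. The window of 250 bases before the start site at 109692436 and the first 50 bases from it is shown because it alone of the 7 holds the motif TGACG (or its reverse complement CGTCA), the half-site bound by CREB family factors, whose gene Creb1 was among the genes measured below. Capitals mark the motif, 35 bases before the start, on the plus strand of chr2:109692186-109692485.
Bdnf start window: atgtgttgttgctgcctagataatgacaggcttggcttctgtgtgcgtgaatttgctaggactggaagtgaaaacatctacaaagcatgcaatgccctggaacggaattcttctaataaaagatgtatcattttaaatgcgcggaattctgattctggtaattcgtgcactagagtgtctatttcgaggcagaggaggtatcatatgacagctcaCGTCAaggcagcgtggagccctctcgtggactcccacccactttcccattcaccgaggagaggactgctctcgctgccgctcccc
The motif is common, with 20.8% of the 32851 RefSeq start windows of this length holding it on either strand, and the full palindrome TGACGTCA, found in 1.79% of them, is not in this window. The single windows given for Ntrk2 and Ngfr hold neither. A match to these letters is a description of the sequence only.

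Ntrk2, the gene of TrkB, gave different answers on its probe sets. Of 8, 5 were above background, 0 rose and 0 fell by the adjusted limma p, and at an unadjusted p under 0.05 from limma 0 were higher and 1 was lower. That one was 1435196_at, at 367 and 211 units on TRAP replicates 2 and 4 and 1313 and 2319 on input replicates 1 and 2. The fractions were well apart, with every input array far above every TRAP array. Its log2 fold change was -2.65 (SE 0.53, 95% interval -4.66 to -0.63), 6.27-fold lower in TRAP, and the adjusted p of 0.0594 from limma missed the threshold. It ranked at percentile 4.52 of the probe sets above background, and the adjusted p was 0.0224 in a fit of only these, 0.0306 with an intensity trend in the prior and 0.0194 after centring on bright probe sets. Whichever 1 of the 4 arrays was left out, it missed the threshold (0.137 to 0.199), with values between -3.06 and -2.24.

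None of the other 4 Ntrk2 probe sets above background had fractions apart. On 1458622_at the levels were 3028 and 4768 units in TRAP and 3280 and 4269 in input. That is a log2 fold change of 0.02 (SE 0.35, 95% interval -1.31 to 1.35, limma adjusted p = 0.961), and its sign turned after quantile normalization or centring. On 1435305_at the TRAP arrays were at 1061 and 1923 units and the input arrays at 813 and 1140. Here the log2 fold change was 0.57 (95% interval -1.16 to 2.30, limma adjusted p = 0.376). Next, 1437560_at was at 215 and 396 units in TRAP and 111 and 397 in input, with a log2 fold change of 0.47 that became -0.44 without input replicate 1. The last, 1420838_at, was at 413 and 250 units in TRAP and 364 and 502 in input, with a log2 fold change of -0.41 (95% interval -1.92 to 1.10, limma adjusted p = 0.447). Each of the 4 intervals reaches past 1 log2 unit on either side (that of 1437560_at runs from -3.10 to 4.05). Changes of that size in either direction are therefore not excluded for these probe sets.

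Setting 1435196_at against the other probe sets of Ntrk2 within each array removes what an array adds to all of them. It does not remove an effect that differs between probe sets of a gene. The 3′ to 5′ difference of Gapdh was 4.96 and 3.52 log2 units in TRAP and 6.81 and 6.39 in input. The part of RNA integrity in these gaps was not tested. The probe set 1435196_at was taken as that with the smallest limma p of the 5, and it also had the lowest log2 fold change. Each difference between the fractions is that of 2 fold changes already given. For both reasons these values are a description and carry no test. Less 1458622_at it was -3.04 and -4.50 log2 units in TRAP and -1.32 and -0.88 in input. Less 1435305_at it was -1.53 and -3.19 in TRAP and 0.69 and 1.02 in input. The difference between the fractions was -2.67 and -3.22 log2 units for these and -2.24 and -3.12 for 1420838_at and 1437560_at. In all 4 cases both TRAP arrays lay below both input arrays. The 4 comparisons share 1435196_at and are not independent. The values do not say which transcript each probe set detects, so whether full-length or truncated forms differed was not tested.

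**Figure D2:**
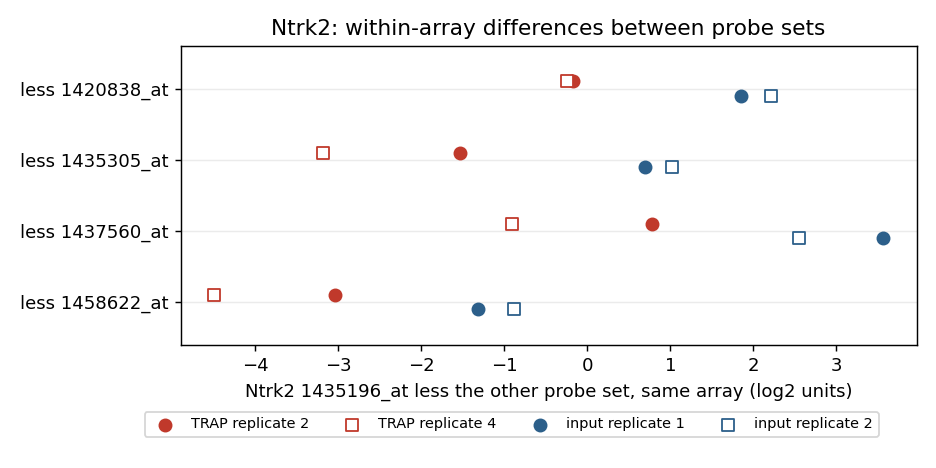
Difference in log2 units between Ntrk2 probe set 1435196_at and each of the 4 other Ntrk2 probe sets above background, measured within an array. Red marks are the TRAP arrays and blue marks the input arrays, and in every row both TRAP arrays lie left of both input arrays.

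Markers of astrocytes, where truncated TrkB is known, ran in the same direction as 1435196_at. All 10 were above background with lower means in TRAP, by a median of -1.74 log2 units, and 2 of them fell. The 2, named here after their values were seen, were Slc1a3, a glutamate transporter (-2.31 log2 units, limma adjusted p = 0.0237), and Sox9, a glial transcription factor, at least 2.12-fold lower. Between the TRAP arrays, 1435196_at was higher on replicate 2, by 0.80 log2 units, as were 9 of the 10 astrocyte markers, by a median of 0.84 over the 10. So was 1420838_at, by 0.72, although its log2 fold change was only -0.41, while 1435305_at, 1437560_at and 1458622_at were higher on TRAP replicate 4, by 0.86, 0.88 and 0.65. Lower values in TRAP and higher values on TRAP replicate 2 were not particular to astrocyte markers. All 7 lists of cell types other than dopamine neurons had medians lower in TRAP, from -2.40 to -1.12 log2 units. Their medians were also higher on TRAP replicate 2, from 0.64 for glutamate neurons (1 gene above background) to 1.97 for vessels. The values between TRAP replicates are differences between 2 arrays, and the part of astrocyte RNA in the result was not tested. Since TRAP takes RNA through the GFP tag and input is whole midbrain RNA, a lower TRAP value does not by itself mean fewer cells or less RNA per cell. Between pools of the same fraction, fewer cells of a type and less RNA per cell cannot be told apart in such bulk values.

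Ntrk3, the gene of TrkC, was lower in TRAP on all 3 of its probe sets above background, and the fall passed on 1 of them. Of these, 1447723_at and 1455917_at were above background only through input, which favours lower TRAP values on them. On 1433825_at the levels were 181 and 215 units on TRAP replicates 2 and 4 and 352 and 422 on input replicates 1 and 2. The arrays of each fraction were close together and the fractions did not overlap. The log2 fold change was -0.97 (SE 0.17, 95% interval -1.60 to -0.33, limma adjusted p = 0.0464), or 1.96-fold lower, which is -1.41 relative to the median of all probe sets above background. This fall missed the threshold whichever 1 of the 4 arrays was left out, with adjusted p from 0.119 to 0.168 from limma. It was also lost when levels under 50 units were raised to 50 (limma adjusted p = 0.163), although none of its own values changed under that setting.

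The other 2 Ntrk3 probe sets had lower TRAP values with a wide spread. On 1447723_at the TRAP arrays were at 12.7 and 70.3 units and the input arrays at 115 and 329, a log2 fold change of -2.70 (SE 1.34, limma adjusted p = 0.212). On 1455917_at they were at 16.8 and 69.3 and at 80.0 and 151, a log2 fold change of -1.69 (SE 1.04, limma adjusted p = 0.280). In both, TRAP replicate 2 was below 50 units and TRAP replicate 4 above it, the reverse of the order of the other cell types' markers on these arrays. The mean over all 8 probe sets of the gene, 5 of them not above background, gave a log2 fold change of -0.52 (limma adjusted p = 0.299).

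**Figure D3:**
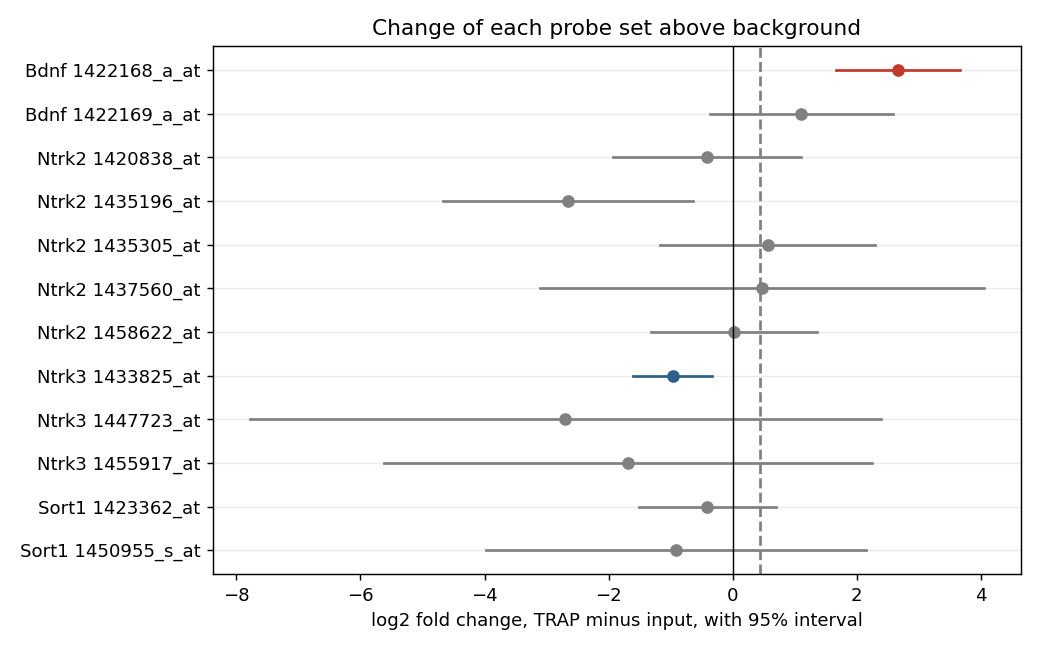
Log2 fold change, TRAP minus input, with its 95% interval from limma for the 12 probe sets above background. Red passed as higher and blue as lower at an adjusted p under 0.05, grey did not pass, the solid line is 0 and the dashed line is 0.44, the median of all probe sets above background. The intervals of 1422168_a_at (1.67 to 3.66), 1433825_at (-1.60 to -0.33) and 1435196_at (-4.66 to -0.63) do not reach 0.

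Neither of the Sort1 probe sets above background passed, with 0 at an unadjusted p under 0.05 from limma. On 1423362_at the TRAP arrays were at 812 and 795 units and the input arrays at 856 and 1325. Both TRAP arrays were below both input arrays, but input replicate 1 lay close to TRAP. The log2 fold change was -0.41 (SE 0.29, 95% interval -1.52 to 0.70, limma adjusted p = 0.335), and of the alternatives run it passed only without input replicate 1, at -0.72 (limma adjusted p = 0.0200). On 1450955_s_at, whose probes can match transcripts of more than 1 gene, the TRAP arrays were at 61.0 and 142 units and the input arrays at 114 and 270 (log2 fold change -0.92, SE 0.81, limma adjusted p = 0.411). The third, 1423363_at, was at 26.7 and 51.4 units in TRAP and 33.1 and 70.1 in input and so was not above background.

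Ngfr, the gene of p75, was not above background in either fraction. Its probe sets 1421241_at and 1450177_at stood at 4.58 units on both TRAP arrays and 4.59 on both input arrays, the lowest values that these arrays hold. On 1454903_at the levels were 15.9 units on each TRAP array and 8.25 and 21.3 on the input arrays. No direction is given for it, since both fractions were under 50 units.

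In all, 12 member probe sets were not above background, from 3 of Ntrk2, 5 of Ntrk3, 3 of Ngfr and 1 of Sort1. On 11 of them every array was under 50 units. Limma gave 6 of the 12 an adjusted p under 0.05, 2 higher (19.0% of all 45037 probe sets) and 4 lower (26.1%), all with the same value on both arrays of each fraction, as with 1425071_s_at of Ntrk3 at 16.4 units in TRAP and 7.37 in input. Such calls rest on values at the bottom of the scale with no spread, and they are not counted.

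Replicate arrays of a fraction differed in the same way for most member probe sets. Of the 12 above background, 8 were higher on TRAP replicate 4 than on replicate 2, against 50.8% of all probe sets above background, and 11 were higher on input replicate 2 than on replicate 1, against 47.8%. Both held for 8, among them 1422168_a_at of Bdnf, all 3 of Ntrk3, 1450955_s_at of Sort1 and 1435305_at, 1437560_at and 1458622_at of Ntrk2, against 25.7% of all. In each fraction the array with the higher values was also that with the smaller 3′ to 5′ difference of Gapdh, and the part of RNA integrity in these values was not tested. Among the 12 with both arrays of the fraction at 50 units or more, the widest gap between TRAP arrays was 2.33-fold, on 1450955_s_at of Sort1, and that between input arrays 3.57-fold, on 1437560_at of Ntrk2.

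Genes with the most similar profile were sought for the brightest probe set of each of the 4 genes above background, as those whose 4 log2 values, each less its own mean, lay nearest by Euclidean distance among 10010 other genes above background. For Bdnf they were Insyn2b (distance 0.14 log2 units), Kank4 (0.14) and Fbxl7 (0.15), with log2 fold changes of 2.65 and 2.63 for Insyn2b and Kank4, while Fbxl7, like Bdnf, was under 50 units on both input arrays. For Ntrk3 they were Insr, the insulin receptor (0.08), Diaph2 (0.08) and Rbm5 (0.09), with log2 fold changes from -1.05 to -0.90. For Ntrk2 1458622_at they were Xkr4 (0.07), Camk2b, a subunit of a calcium-dependent kinase (0.08), and Myadm (0.08), with log2 fold changes from -0.01 to 0.09. For Sort1 they were Tgfbrap1 (0.05), Ift140 (0.07) and Trim8 (0.07), with log2 fold changes from -0.40 to -0.44. With 4 arrays these likenesses describe the profiles and carry no test.

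The other genes of the pathway were taken from 5 lists of 99 genes, of which 82 were measured with 1 symbol and 67 were above background on their brightest probe set. Of the 67, 10 rose, against 18.7% of all 10014 genes above background, and 2 fell, against 6.87%. Their median log2 fold change was 0.28, beside 0.44 over all genes above background. After centring of the arrays on bright probe sets, which moved the median of all probe sets above background by -0.41, 12 rose and 16 fell. Of all 17073 probe sets above background, that setting called 3745 higher and 3867 lower, against 3213 and 1559 as reported. Quantile normalization moved the median of all probe sets above background by -0.37, and with it 6 pathway genes rose and 5 fell. The numbers of rises and falls thus depended on the processing, and as reported both are smaller shares than among all genes.

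**Figure D4:**
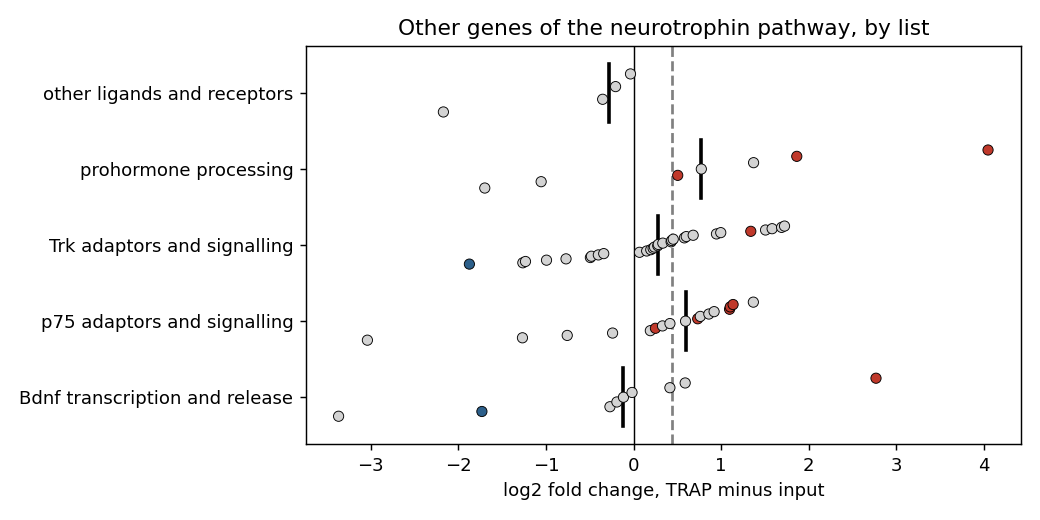
Log2 fold change, TRAP minus input, of the 67 pathway genes above background, 1 mark per gene on its brightest probe set, by list. Red marks rose and blue marks fell at an adjusted p under 0.05, grey did not pass, black bars are list medians (from -0.28 for other ligands and receptors to 0.77 for prohormone processing), the solid line is 0 and the dashed line is 0.44, the median of all genes above background.

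Among the genes listed for processing of neurotrophin and other precursors, not all of them enzymes, 3 of 7 above background rose and 0 fell. Over all genes above background the shares were 18.7% and 6.87%. The median log2 fold change of the 7 was 0.77. At a limma p under 0.05 without adjustment 1 was lower, the convertase Pcsk7. It was at 46.6 and 36.8 units in TRAP and 97.8 and 75.9 in input, at least 1.72-fold lower (limma adjusted p = 0.0689). Pcsk5, another convertase, had a log2 fold change of -1.70 (limma adjusted p = 0.215). Pcsk1, a convertase of the regulated secretory pathway, was at 108 and 242 units in TRAP and 9.30 and 10.3 in input, and thus rose at least 3.24-fold (limma adjusted p = 0.0296). Furin, a convertase that cuts neurotrophin precursors in the trans-Golgi, was at 101 and 109 units in TRAP and 25.6 and 32.3 in input, and rose at least 2.09-fold (limma adjusted p = 0.0138). In both genes the TRAP arrays were clearly above input and input was under 50 units. With levels under 50 units raised to 50, Pcsk1 had a log2 fold change of 1.69 and missed the threshold (limma adjusted p = 0.351). Furin still passed in that setting, at 1.07 (limma adjusted p = 0.0304). Pcsk1 missed the threshold without either 1 of the input arrays (up to 0.152) and Furin without either 1 of the TRAP arrays (up to 0.126). Cpe, a carboxypeptidase that also sorts BDNF precursor into secretory granules, was at 26664 and 28708 units in TRAP and 19663 and 19352 in input. Its log2 fold change of 0.50 (limma adjusted p = 0.0174) is close to the median of all genes, and after centring it was 0.09 and did not pass (limma adjusted p = 0.348). Without either 1 of the input arrays it did not pass (up to 0.115).

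Of the genes that act with p75, 5 of 17 above background rose and 0 fell, against the same 18.7% and 6.87% of all genes. Their median log2 fold change was 0.59. At a limma p under 0.05 without adjustment 1 was lower, Smpd2, at 12.0 and 11.1 units in TRAP and 60.1 and 150 in input. That is at least 1.90-fold lower (limma adjusted p = 0.0602). Bex3, a p75-associated death executor, was at 12483 and 13341 units in TRAP and 5775 and 5969 in input (log2 fold change 1.14, limma adjusted p = 0.00358). Psenen, a subunit of the gamma-secretase that cuts p75, had a log2 fold change of 1.10 (limma adjusted p = 0.00794), and Ndn, the imprinted gene of necdin, one of 1.10 (0.0233). The other 2 were Bex1, a relative of Bex3 (0.73, limma adjusted p = 0.0265), and Mapk10, a neuronal JNK (0.25, limma adjusted p = 0.0156). Of the other gamma-secretase subunits above background, Aph1a had a log2 fold change of -1.27 (limma adjusted p = 0.0920). Psen2 had one of 0.76 (limma adjusted p = 0.0613), so neither passed. The probe sets of Ndn and Mapk10 can also bind RNA of other genes. Mapk10 lay below the median of all genes, and its log2 fold change turned to -0.16 after centring and -0.20 after quantile normalization. Bex3 passed whichever array was left out, while Ndn, Bex1 and Mapk10 each missed the threshold whichever array was left out, and Psenen did not pass without either 1 of the input arrays (up to 0.0674).

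Trk adaptors and kinases downstream of the receptors were mostly not called: of 30 above background 1 rose (against 18.7%) and 1 fell (against 6.87%), with a median log2 fold change of 0.28. Akt1, a kinase of the survival pathway, was at 2746 and 2866 units in TRAP and 1095 and 1124 in input (log2 fold change 1.34, SE 0.03, limma adjusted p = 0.00122), and it passed whichever 1 of the 4 arrays was left out. Rps6ka5, a kinase that phosphorylates CREB, was at 222 and 169 units in TRAP and 746 and 674 in input (log2 fold change -1.87, SE 0.20, limma adjusted p = 0.0187). Without TRAP replicate 4 or either 1 of the input arrays it missed the threshold (up to 0.115). Ptpn11, the phosphatase SHP2 and the brightest of the remaining genes, had a log2 fold change of 0.22 (limma adjusted p = 0.242).

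Among 9 genes of Bdnf transcription and BDNF release above background, 1 rose and 1 fell, again beside 18.7% and 6.87% of all genes. At a limma p under 0.05 without adjustment 2 were lower, the one that fell and Mef2c. Mef2c had the largest change of the 9, at 107 and 80.6 units in TRAP and 538 and 1710 in input. Its log2 fold change was -3.37 (SE 0.80) and did not pass (limma adjusted p = 0.0778). The one that rose is no transcription factor: Cadps2, which promotes the release of BDNF from dense-core vesicles, was at 11099 and 14234 units in TRAP and 1737 and 1960 in input. This is a log2 fold change of 2.77 (SE 0.19, limma adjusted p = 0.00814), and it missed the threshold without either 1 of the input arrays (up to 0.0698). Rest, a repressor of neuronal genes with Bdnf among its known targets, was below 50 units on both TRAP arrays (46.9 and 37.3) and at 125 and 154 in input, and so fell at least 2.78-fold (limma adjusted p = 0.0237). With levels under 50 units raised to 50, Rest missed the threshold (limma adjusted p = 0.0773). Its fall was lost whichever array was left out (up to 0.127). Creb1 had a log2 fold change of -0.27 (limma adjusted p = 0.163).

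Of the other ligands and receptors, 4 of 7 measured were above background, 0 rose and 0 fell (against 18.7% and 6.87%), and 1 was lower at a limma p under 0.05 without adjustment. This was Sorcs1, a sortilin-related receptor, at 76.4 and 42.1 units in TRAP and 318 and 206 in input (log2 fold change -2.17, SE 0.49, limma adjusted p = 0.0729). Sorl1, another member of that family, was at 3802 and 6056 units in TRAP and 4751 and 6443 in input (log2 fold change -0.21, limma adjusted p = 0.670), and Sorcs2 had a log2 fold change of -0.35 (limma adjusted p = 0.419). Lingo1, a co-receptor of p75, was at 564 and 632 units in TRAP and 595 and 629 in input (log2 fold change -0.04, limma adjusted p = 0.745). Ntf5, the gene of neurotrophin 4, was at 7.75 units on both TRAP arrays and 4.82 on both input arrays, and Sorcs3 and the Nogo receptor gene Rtn4r were also not above background.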

How the data were processed

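RNA of 2 TRAP and 2 input fractions, up to 10 ng each, was amplified in 2 cycles, which favours the 3′ ends of transcripts, and hybridised to Affymetrix mouse expression arrays by the authors. The authors processed them with GCRMA (version not given in the sources used here), and deposited 1 log2 value per probe set and array. Of 45101 probe sets, 64 controls were left out, and of the 45037 tested 34945 have 1 gene symbol, 932 several and 9160 none in the platform annotation. A RefSeq table (GRCm38.p6) matched 34741 by gene identifier, and 0 symbols changed.

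The fractions were compared with limma 3.58.1 in R 4.3.3 (1 term for the fraction, eBayes, 2-sided, Benjamini-Hochberg over 45037 probe sets). The prior had 0.317 degrees of freedom beside 2 residual ones. Levels under 50 units were taken as background. A gene's brightest probe set (mean log2 value) stood for it in lists. Motifs and figures used Python 3.11.15. Tested on simulated data, the fit recovered the mean size of the changes but called few of them.

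Members and gene lists were chosen with earlier results of these data known. Named genes are all member probe sets, 3 nearest profiles a gene, and of each list up to 6 that passed, with the brightest added up to 3. Outside this rule, Pcsk5, Pcsk7, Smpd2, Aph1a and Mef2c were added after their lower TRAP values were seen, with Psen2 beside Aph1a. The replicates are pools with separate labels. The 17 listed genes without a probe set of their own symbol were not analysed here. Alternatives were quantile normalization, centring, other filters, a floor, an intensity trend, controls kept and arrays left out.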

Additional observations from a re-analysis of the deposited data

How the results depend on the processing

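Of the 12 member probe sets above background, 1 was called higher and 1 lower as reported. With values under 50 units raised to 50, limma called 0 higher and 0 lower (2 and 2 at an unadjusted p under 0.05), and at an adjusted p threshold of 0.01 it called 0 and 0 (1 and 2 unadjusted). Lower calls became 2 after centring on bright probe sets, in a fit of only probe sets above background and with an intensity trend, with 1435196_at of Ntrk2 as the second. Over all 17073 probe sets above background, lower calls in these settings were 3867, 1972 and 2042, against 1559 as reported. Leaving out 1 array at a time gave 1 to 1 higher and 0 to 1 lower (where 0, also 0 at an unadjusted p from limma), and the lower one, without input replicate 1, was 1423362_at of Sort1. The lone array of a fraction was then assumed to vary like the other fraction. Of the pathway genes, 10 were called higher and 2 lower. Higher calls were 6 after quantile normalization, 3 with values raised to 50 and 4 at the threshold of 0.01, and lower calls were 5, 0 and 0 (7 and 6 unadjusted from limma for the last 2), 16 after centring, 6 in the fit above background, 6 with the trend and 4 when the probe sets of each gene were averaged. Quantile normalization, values raised to 50 and the threshold of 0.01 gave 2222, 824 and 944 higher calls over all probe sets above background, against 3213 as reported. Lower calls over all were 2038, 467 and 632 in the same order. Leaving out 1 array gave 5 to 8 higher and 0 to 2 lower. Of the member probe sets, those whose sign changed were both of Ntrk2: 1458622_at went to -0.50 after quantile normalization, -0.39 after centring, -0.31 without TRAP replicate 4 and -0.17 without input replicate 1 (-0.31 to 0.35 over the arrays left out), 1437560_at to -0.44 without input replicate 1 (-0.44 to 1.39), and the gene's mean over its probe sets was -0.26. The cause was not tested. Keeping control probe sets or a background of 100 units changed none of the counts of member probe sets and pathway genes called. Over all probe sets above background, 3209 were called higher and 1559 lower with controls kept. At a background of 100 units these were 2752 and 1006. No paired analysis was possible because the fractions share only replicate number 2. The methods state that input was taken in parallel from each replicate, so the arrays numbered 2 may come from the same pool. All 4 arrays were fitted as independent.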
